A study of Mus musculus with 20 samples.

Results

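Apolipoproteins are the protein part of the lipid particles that carry triglyceride and cholesterol through the blood. The 10 genes described here, Apoa1, Apoa2, Apoa4, Apoa5, Apob, Apoc1, Apoc2, Apoc3, Apoe and Apom, are the best known genes of this kind in liver. They were taken by symbol from a table of 48440 genes, and all 10 were among the 16071 genes that passed the filter on low counts. The family was chosen by the level of Apoa4, which had been seen to be higher with corticosterone under the isotype antibody, so that comparison is given for the members as a description and without a test.

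RNA was sequenced from the livers of 20 female wild-type C57BL/6 mice, 8 weeks old according to the labels, 5 mice in each of 4 groups. The paper used 8-week-old mice for its antibody experiments and collected tissues after 5 weeks, so this is read as the starting age. For 5 weeks the mice were given corticosterone (CORT), the main glucocorticoid of rodents, in a mouse model of Cushing's syndrome, or its vehicle. They were also injected intraperitoneally with a monoclonal antibody against acyl-CoA-binding protein (αACBP), the protein encoded by Dbi, or with an IgG2a isotype control antibody. The groups are called Isotype + Vehicle (IgG_Veh in the labels), Isotype + CORT (IgG_CORT), αACBP + Vehicle (DBI_Veh) and αACBP + CORT (DBI_CORT). The labels number the livers as biological replicates 1 to 5 of each group. Whole liver holds many cell types, and in such samples fewer cells of a type and less RNA per cell cannot be told apart.

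The liver is the main source of most plasma apolipoproteins, and in mice Apob, Apoa1 and Apoa4 are made in the small intestine as well. Apob is the scaffold of very-low-density lipoprotein (VLDL), and a VLDL particle leaves the hepatocyte only after microsomal triglyceride transfer protein has loaded Apob with lipid. Apoa1 and Apoa2 are the main proteins of high-density lipoprotein (HDL). Apoc2 is the cofactor of lipoprotein lipase in the blood vessels, whereas Apoc1 and Apoc3 slow the clearance of triglyceride-rich particles and Apoa5 speeds it. Apoe is the ligand by which remnant particles are taken up by receptors of the liver.

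Of the 10 genes, Apoa1, Apoc3, Apoa4 and Apoa5 lie side by side on chromosome 9, and Apoe, Apoc1 and Apoc2 form a second cluster on chromosome 7. The 250 bases before the RefSeq start of the transcript are printed for Apoa4, whose level differed most between the groups, for Apob, whose level followed Apoa4 most closely among the members, and for Apoa1, a neighbour of Apoa4 whose level had the lowest correlation with it among the members. All 3 windows are on the plus strand of GRCm38.p6 and are written 5′ to 3′, the Apoa4 window being chr9:46240594-46240843, the Apob window chr12:7977427-7977676 and the Apoa1 window chr9:46228380-46228629. Capitals mark a match to a searched motif on either strand, and other transcript models can begin inside a window.
Apoa4: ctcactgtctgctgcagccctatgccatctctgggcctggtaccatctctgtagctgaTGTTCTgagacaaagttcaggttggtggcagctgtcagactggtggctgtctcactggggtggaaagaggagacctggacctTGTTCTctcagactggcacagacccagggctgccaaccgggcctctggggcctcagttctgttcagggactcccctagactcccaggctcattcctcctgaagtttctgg
Apob: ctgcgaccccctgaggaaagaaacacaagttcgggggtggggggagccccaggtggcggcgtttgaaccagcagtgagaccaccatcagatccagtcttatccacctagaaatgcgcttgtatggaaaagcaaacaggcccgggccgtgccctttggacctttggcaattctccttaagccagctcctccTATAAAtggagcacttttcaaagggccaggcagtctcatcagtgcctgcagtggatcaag
Apoa1: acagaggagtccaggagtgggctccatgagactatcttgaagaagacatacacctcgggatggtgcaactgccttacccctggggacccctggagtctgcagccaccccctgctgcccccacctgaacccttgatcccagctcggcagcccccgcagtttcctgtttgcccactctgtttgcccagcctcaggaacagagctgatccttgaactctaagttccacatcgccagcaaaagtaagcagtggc

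The Apoa4 window holds the letters TGTTCT at 192 and at 110 bases before the start. These are the reverse complement of AGAACA, the hexamer of the glucocorticoid response element, which occurs in 16.1% of the 32851 promoter windows of the same length. In the Apob window the letters TATAAA, the TATA box, lie 60 bases before the start used for the window and occur in 12.4% of all windows. The gene span of Apob begins inside this window, at chr12:7977629, so the letters lie closer to that start. The Apoa1 window has no match to the searched motifs. The other motifs searched on both strands were AGGTCA, the nuclear receptor hexamer (14% of all windows), CAAAGTCC, the core bound by HNF4 (1.2%), TGACG, the core of the cyclic AMP response element (17.8%), and CACGTG, the E-box (6.02%). Of the 10 members, 8 had a window in the table, and Apoc1 and Apoc3 did not. The hexamer AGAACA was also found in the windows of Apoc2 and Apoe. The TATA box and the E-box were found in that of Apoa5, the nuclear receptor hexamer in those of Apoa2 and Apoc2, and the cyclic AMP response core in that of Apoc2. No matches overlapped within a window. A match of letters is a description of the sequence and no binding was measured.

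The counts on genes amounted to 14934926 to 20299999 per liver, so that 3 counts, the lowest level taken as detectable, equal 0.201 CPM (counts scaled to a common library size) at the lowest depth, which covers counting error only. Levels below are CPM normalized by TMM unless stated. The phrase livers that stood apart is used below for replicate 5 of 2 groups. In αACBP + Vehicle, replicate 5 had a summed level of 8 hepatocyte markers of 34019 CPM, where the group median was 77951 CPM, and its median correlation with the other livers of the group was 0.849. In Isotype + CORT, replicate 5 had the highest Apoa4, Apob and Apom and the lowest Apoa1 and Apoa2 of its group. This liver was set apart by the members' own levels. Its median correlation with its group was 0.878, where the livers of that group had 0.87 to 0.891. In the other groups the lowest values were 0.89 (Isotype + Vehicle replicate 4) and 0.909 (αACBP + CORT replicate 5), livers that were left out singly only. For some members, results are also given without αACBP + Vehicle replicate 5 or Isotype + CORT replicate 5. The correlations with Apoa4 include every liver. Hepatocyte markers were high in every liver, and their sum had a range of 65292 to 115686 CPM in Isotype + Vehicle, 81521 to 131042 in Isotype + CORT, 34019 to 81487 in αACBP + Vehicle and 69385 to 97583 in αACBP + CORT.

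Together the 10 members took a large part of the liver transcriptome. Their share of the counts on genes was 6.96% ± 0.677 (SD, n = 5) in Isotype + Vehicle, 7.5% ± 0.892 (SD, n = 5) in Isotype + CORT, 6.26% ± 1.28 (SD, n = 5) in αACBP + Vehicle and 7.59% ± 0.705 (SD, n = 5) in αACBP + CORT. The ranges of all 4 groups overlapped, and the lowest liver was αACBP + Vehicle replicate 5 at 4.02%. Apoe was the gene with the second highest mean CPM in every group, and Apoa2 ranked 3 or 4. Apoa4 ranked 554 in Isotype + Vehicle, 71 in Isotype + CORT, 729 in αACBP + Vehicle and 189 in αACBP + CORT.

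**Figure D1:**
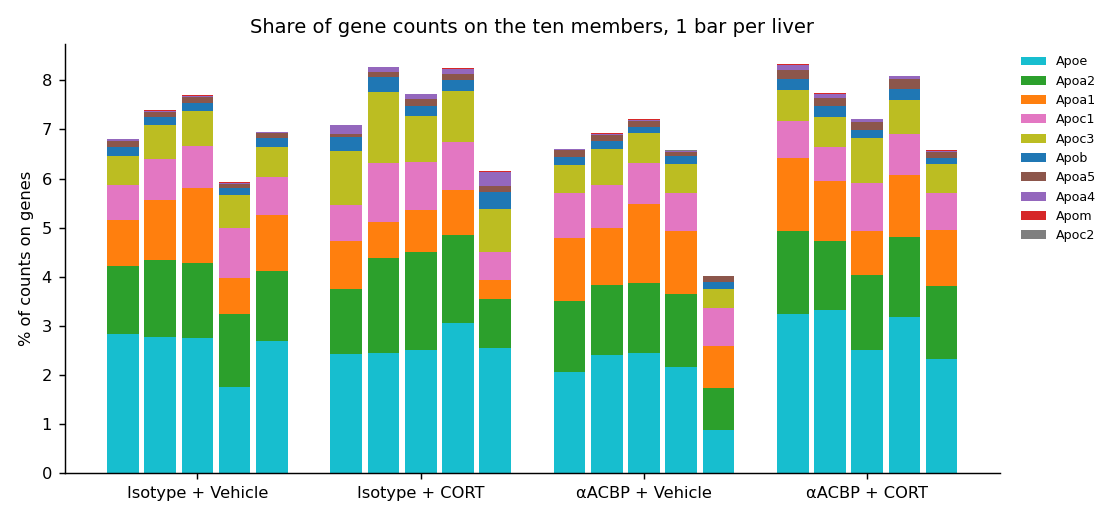
Share of the counts on genes, in percent, taken by each of the 10 members, with 1 stacked bar per liver in replicate order within each group. Apoe, Apoa2, Apoa1, Apoc1 and Apoc3 make up most of each bar, and the lowest bar is αACBP + Vehicle replicate 5 at 4.02%.

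Levels of different genes were compared per length, as RPKM (CPM per 1000 bases of the canonical transcript). In Isotype + Vehicle livers the order was Apoa2 (28645 ± 1475 RPKM, SD, n = 5), Apoe (11910.1 ± 2492), Apoa1 (7611 ± 2212), Apoc1 (5995 ± 555), Apoc3 (2698 ± 200.2), Apoa5 (398 ± 80.5), Apoa4 (139 ± 31), Apob (126 ± 18.4), Apom (94 ± 32.8) and Apoc2 (9.58 ± 3.53). Apoe and Apoa1 overlapped between livers, as did Apoa1 with Apoc1, Apoa4 with Apob and Apob with Apom, whereas the other neighbours in that order did not. In Isotype + CORT livers Apoa4 stood at 912 ± 545 RPKM (SD, n = 5), above the mean of Apoa5 (439.6 ± 114) and overlapping it, and clear of Apob (206 ± 45.5). The low value of Apoc2 depends on the counting. Exons of the gene model Gm44805 on the same strand cover 80.9% of the exon bases of Apoc2, Gm44805 was at 0 in all livers, and Apoc2 held 48 to 223 counts per liver, so that its level may describe only a part of the transcript.

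Apoa4 encodes an apolipoprotein of chylomicrons, VLDL and HDL that is known in mouse liver to follow the triglyceride load. The gene lies at chr9:46240844-46243458 of GRCm38.p6 on the plus strand. In Isotype + Vehicle its level in replicates 1 to 5 was 322, 225, 299, 186 and 230.5 CPM. In Isotype + CORT it was 2055, 878, 952, 1175 and 3212 CPM. The lowest CORT liver lay above the highest vehicle liver, and replicates 1 and 5 lay far above the other CORT livers. With the antibody it was 191, 254, 191, 216 and 62.9 CPM in αACBP + Vehicle. In αACBP + CORT it was 1193, 946, 513, 543 and 275 CPM. All αACBP + CORT livers were above all αACBP + Vehicle livers, replicate 5 by the smallest margin.

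Under isotype, Apoa4 was higher with CORT by a log2 fold change of 2.71 (SE 0.44), from 253 ± 56.2 to 1655 ± 989 CPM (SD, n = 5), which is a description since this difference chose the family. Without Isotype + CORT replicate 5 the log2 fold change was 2.32, and without that liver and αACBP + Vehicle replicate 5 it was 2.3. Under αACBP, in livers that had no part in that choice, Apoa4 was at 183 ± 71.9 CPM with vehicle and 694 ± 369 CPM with CORT (SD, n = 5). The log2 fold change was 1.92 (SE 0.43, 95% interval 1.03 to 2.82), higher in 5 of 5 CORT livers than in any vehicle liver. Its adjusted p was 0.0577 in edgeR's quasi-likelihood test over all genes, which missed the limit of 0.05. That fit took its spread from all 4 groups, and with only the groups compared the adjusted p was 0.0964 by edgeR. The exact permutation test of this single gene gave an unadjusted two-sided p = 0.00794, the smallest that 5 against 5 livers can give. Any gene without overlap has this value, and 2.74% of all genes did not overlap in this comparison. By DESeq2 the adjusted p was 0.00145 and by voom 0.00137. It ranged from 0.00137 to 0.218 over the alternatives run, and most of them exceeded 0.05. By edgeR it was 0.00812 without αACBP + CORT replicate 5. Without both livers that stood apart, an alternative chosen after seeing the data, it was 0.0484. Of those livers, only αACBP + Vehicle replicate 5 is in this comparison. Without it alone edgeR gave an adjusted p of 0.138 and a log2 fold change of 1.7.

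**Figure D2:**
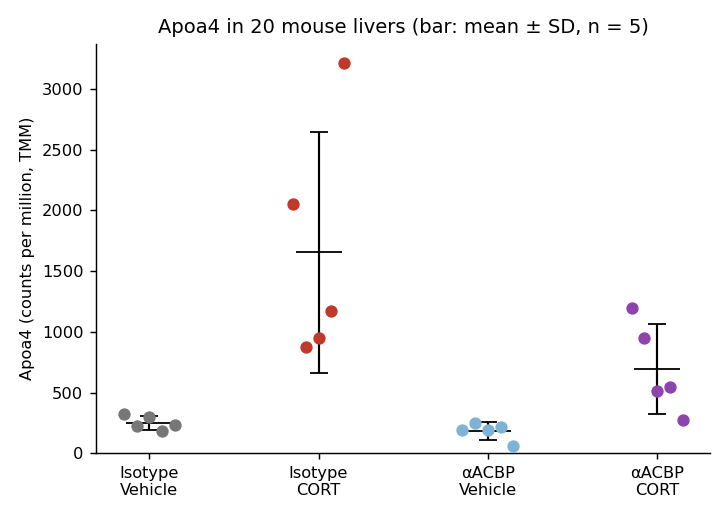
Apoa4 in CPM (linear axis) in the 20 livers, 1 point per liver, with the mean and SD of each group of 5 as bars. The Isotype + CORT livers range from 878 to 3212 CPM, above all Isotype + Vehicle livers, and the αACBP + CORT livers range from 275 to 1193 CPM.

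The comparisons of Apoa4 between antibodies share livers with the one that chose the family, and their values are given without a test. With CORT, the log2 fold change of αACBP against isotype was -1.25 (SE 0.42), and 3 of the 5 αACBP + CORT livers lay below the lowest Isotype + CORT liver. Without Isotype + CORT replicate 5 this value was -0.87, and without both livers that stood apart -0.85. With vehicle, the log2 fold change between antibodies was -0.47 (SE 0.41) and the groups overlapped. The αACBP + CORT livers were above Isotype + Vehicle by 1.46 (SE 0.42) on the log2 scale. The difference between the CORT responses under both antibodies was -0.79 (SE 0.58) on the log2 scale, as a description. Exons of Gm10680 on the opposite strand cover 34.8% of the exon bases of Apoa4, and the strand setting of the counting is not given in the sources used here. Gm10680 held between 0.848 and 1.2 times the Apoa4 count in each liver, so reads of the 2 genes cannot be told apart in their shared part.

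Apob, the scaffold of VLDL and of low-density lipoprotein, lies at chr12:7977629-8016839. Its level in replicates 1 to 5 was 2018, 1693, 1759.8, 1357 and 1930.5 CPM in Isotype + Vehicle and 2929, 2975, 2059.7, 2580.1 and 3794 CPM in Isotype + CORT. The groups did not overlap, the closest livers being at 2018 and 2059.7 CPM. Under αACBP it was 1449, 1606, 1166, 1542 and 1028 CPM with vehicle and 2207, 2474, 1697, 2148 and 1215 CPM with CORT. These groups overlapped through αACBP + CORT replicate 5. The log2 fold change with CORT was 0.71 (SE 0.2) under isotype, as a description, and 0.59 without Isotype + CORT replicate 5. Under αACBP it was 0.52 (SE 0.2, adjusted p = 0.251 by edgeR). With CORT, Apob under αACBP differed from isotype by -0.56 (SE 0.2, adjusted p = 0.192), and with vehicle by -0.37 (SE 0.2, adjusted p = 0.301). None of these tests passed.

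Apoc3, an inhibitor of triglyceride clearance whose gene lies between Apoa1 and Apoa4, was at 6392, 6907, 7204, 6367 and 5969 CPM in Isotype + Vehicle. It was at 11842, 14563, 9038, 11583 and 9969.7 CPM in Isotype + CORT, clear of every vehicle liver. In αACBP + CORT it was at 6765, 6780.1, 8606, 7094 and 5694 CPM, below every Isotype + CORT liver, and in αACBP + Vehicle at 5436, 7434, 5944, 5705 and 3009 CPM. The log2 fold change with CORT was 0.8 (SE 0.2) under isotype, as a description, and 0.34 (SE 0.2, adjusted p = 0.491) under αACBP. With CORT, all 5 αACBP livers were lower in Apoc3 than any isotype liver, with a log2 fold change of -0.71 (SE 0.2). This difference missed the limit in edgeR's test over all genes (adjusted p = 0.0795). The exact permutation test gave an unadjusted p = 0.00794, the smallest possible, which any gene without overlap has. In this comparison 3.22% of all genes did not overlap. DESeq2 gave an adjusted p of 0.00572 and voom 0.022. Without both livers that stood apart, an alternative chosen after seeing the data, the value was 0.0169 by edgeR. Of those livers, only Isotype + CORT replicate 5 is in this comparison, and without it alone edgeR gave 0.0836. The adjusted p by edgeR was 0.126 with only the groups compared and 0.227 without αACBP + CORT replicate 5. It ranged from 0.00572 to 0.227 over the alternatives run, and most of them exceeded the limit. The size of the difference is under the fold limit of 1 on the log2 scale in each of these fits, so that it counts as called in none.

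Apoa1, Apoa2 and Apom are the members carried mainly on HDL. Apoa1 ranged from 6885 to 15864 CPM in Isotype + Vehicle (median 11348), from 4415 to 10672 in Isotype + CORT (median 8395), from 6710.2 to 15495 in αACBP + Vehicle (median 11960.1) and from 8516 to 15426 in αACBP + CORT (median 12736). It is the member with a lower mean in Isotype + CORT than in Isotype + Vehicle, with a log2 fold change of -0.46 (SE 0.25). With CORT, the value under αACBP exceeded that under isotype by 0.57 (SE 0.25, adjusted p = 0.327 by edgeR), and the groups overlapped. Apoa2 lay between 13738 and 15555 CPM in Isotype + Vehicle, a spread of 1.13 times, and its log2 fold changes were between -0.24 and 0.32 in the comparisons of 2 groups. In Isotype + CORT 3 livers lay at 19372 to 19895 CPM and the others at 14293 and 11401 CPM. Apom, which carries sphingosine-1-phosphate on HDL, was at 78.9, 60, 69.1, 99.4 and 354 CPM in Isotype + CORT and between 63.4 and 147 CPM in Isotype + Vehicle. Replicate 5 of Isotype + CORT set its direction, since the log2 fold change with CORT under isotype was 0.47 (SE 0.44) with that liver and -0.31 without it.

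Apoa5, which speeds the lipolysis of triglyceride-rich particles and is made almost only in liver, had its highest levels with both treatments. It was at 1850.5, 1812, 1587, 2102 and 1113 CPM in αACBP + CORT and at 1278, 1252, 1138, 835 and 936 CPM in αACBP + Vehicle. In Isotype + CORT it was at 683, 1103, 1355, 1367 and 1426 CPM, and in Isotype + Vehicle at 1326, 1097, 1191, 748 and 1004 CPM. A total of 4 of the 5 αACBP + CORT livers exceeded all livers of the other groups, and replicate 5 lay among them. The log2 fold change of αACBP + CORT was 0.64 (SE 0.21, adjusted p = 0.166) against αACBP + Vehicle, 0.51 (SE 0.21, adjusted p = 0.281) against Isotype + CORT and 0.66 (SE 0.21, adjusted p = 0.265) against Isotype + Vehicle. These edgeR tests did not pass.

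Apoe was at 29747 ± 6173 CPM (SD, n = 5) in αACBP + CORT, its highest mean, and at 27637 ± 4027 in Isotype + CORT. It was at 25976 ± 5436 in Isotype + Vehicle and 18888 ± 7064 in αACBP + Vehicle, where replicate 5 was at 6774 CPM. The log2 fold change with CORT was 0.66 under αACBP (SE 0.25, adjusted p = 0.253 by edgeR), and 0.44 without that liver. Apoe is also made by macrophages, and the summed level of 8 Kupffer cell and macrophage markers, all of them detected, ranged from 327 to 636 CPM in Isotype + Vehicle, 122 to 360.4 in Isotype + CORT, 453 to 768 in αACBP + Vehicle and 441 to 600.4 in αACBP + CORT. Their part in the Apoe level was not tested. Apoc1 was the steadiest member of the C class, with group means between 7746 and 9322 CPM and log2 fold changes between -0.2 and 0.14 in the comparisons of 2 groups. Apoc2 stood between 2.93 and 12.3 CPM over all livers, and its log2 fold changes lay between 0.05 and 0.46.

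**Figure D3:**
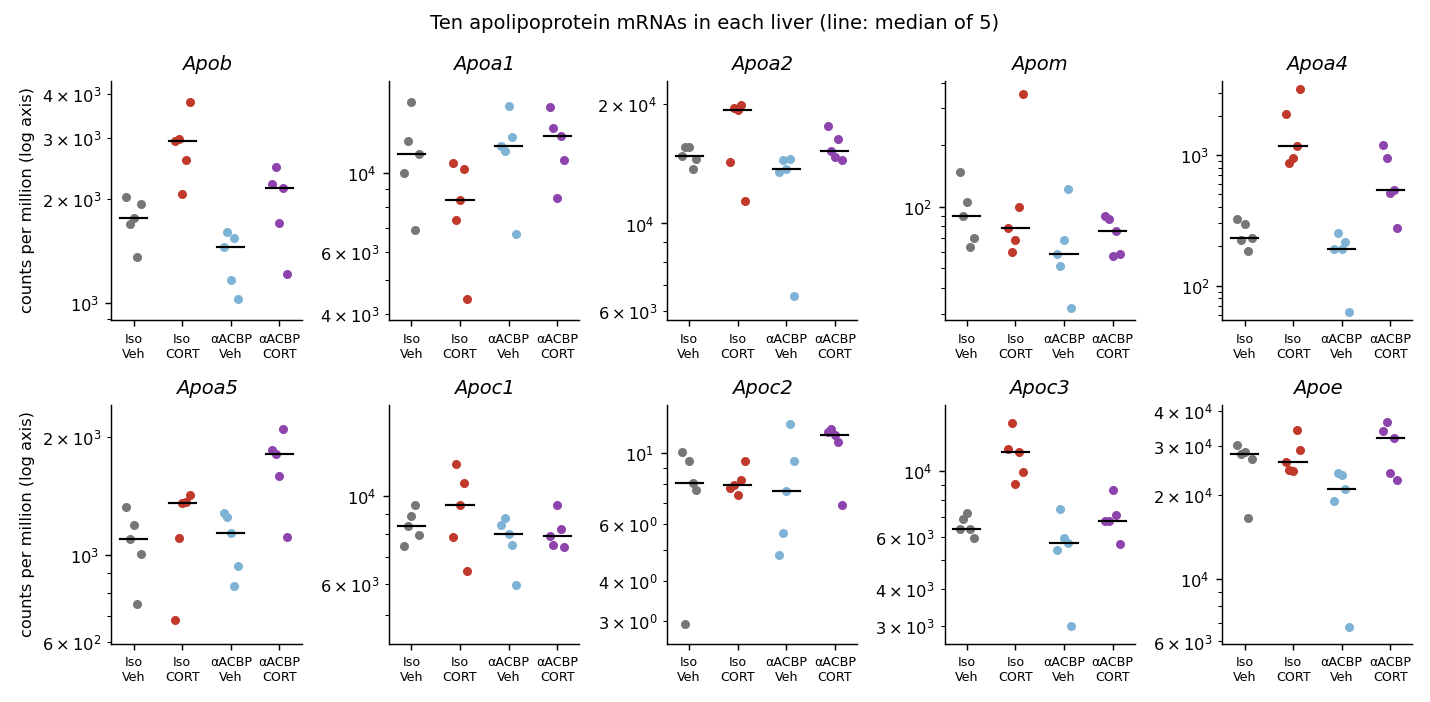
The level of each of the 10 members in CPM (log axis, with a scale of its own per gene) in every liver, with a line at the median of each group of 5. Apoa4, Apob and Apoc3 are higher in all Isotype + CORT livers than in all Isotype + Vehicle livers, and Apom has a single high liver at 354 CPM.

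A gene was called where its adjusted p was at most 0.05 and its log2 fold change was 1 or more in size. For CORT under isotype, 1 of the 10 members, Apoa4, met this rule, beside 1.94% of all genes tested. Apoa4, Apob and Apoc3 had groups that did not overlap, 3 of the 10 members, beside 5.04% of all genes. These counts describe the contrast that chose the family, and nothing is read from them. Of the 10 log2 fold changes 9 were above 0, and 8 without both livers that stood apart.

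Apoa4 is left out of the counts of tests below, except for CORT under αACBP, since the other comparisons share livers with the one that chose the family. For αACBP against isotype under CORT, 0.597% of all genes were called, and edgeR, DESeq2 and voom called 0 of the other 9 members. An unadjusted p under 0.05 was found for 4 of the 9 (Apoa1, Apoa5, Apob and Apoc3) beside 12.5% of all genes. A single member, Apoc3, had groups that did not overlap in that comparison, beside 3.22% of all genes. For CORT against vehicle under αACBP, 0.212% of all genes were called, edgeR called 0 of the 10 members, 4 members had an unadjusted p under 0.05 (Apoa4, Apoa5, Apob and Apoe) beside 12.7%, and DESeq2 and voom each called 1, Apoa4. Apoa4 alone did not overlap there, beside 2.74%. For the antibody under vehicle, 1.3% of all genes were called, and edgeR, DESeq2 and voom called 0 of the 9. Of these, 0 had an unadjusted p under 0.05 beside 20.6%, and 0 did not overlap beside 7.13%. Between αACBP + CORT and Isotype + Vehicle, 0.0684% of all genes were called, and edgeR, DESeq2 and voom called 0 of the 9. Apoa5 was the 1 with an unadjusted p under 0.05, beside 7.59%, and 0 did not overlap beside 3.31%. For the interaction of CORT and antibody, 0.143% of all genes were called, edgeR, DESeq2 and voom called 0 of the 9, and 0 had an unadjusted p under 0.05 beside 10.6%. All 10 log2 fold changes with CORT under αACBP were above 0, with a median of 0.37 against 0.01 for all genes, but 7 were without both livers that stood apart, where Apoa1 was at -0.09, Apoc1 at -0.02 and Apom at -0.02. With library sizes that left out the 20 most abundant genes, or the 10 members, 8 were above 0. With αACBP under CORT 4 were above and 6 below 0, with a median of -0.16 against 0.01.

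**Figure D4:**
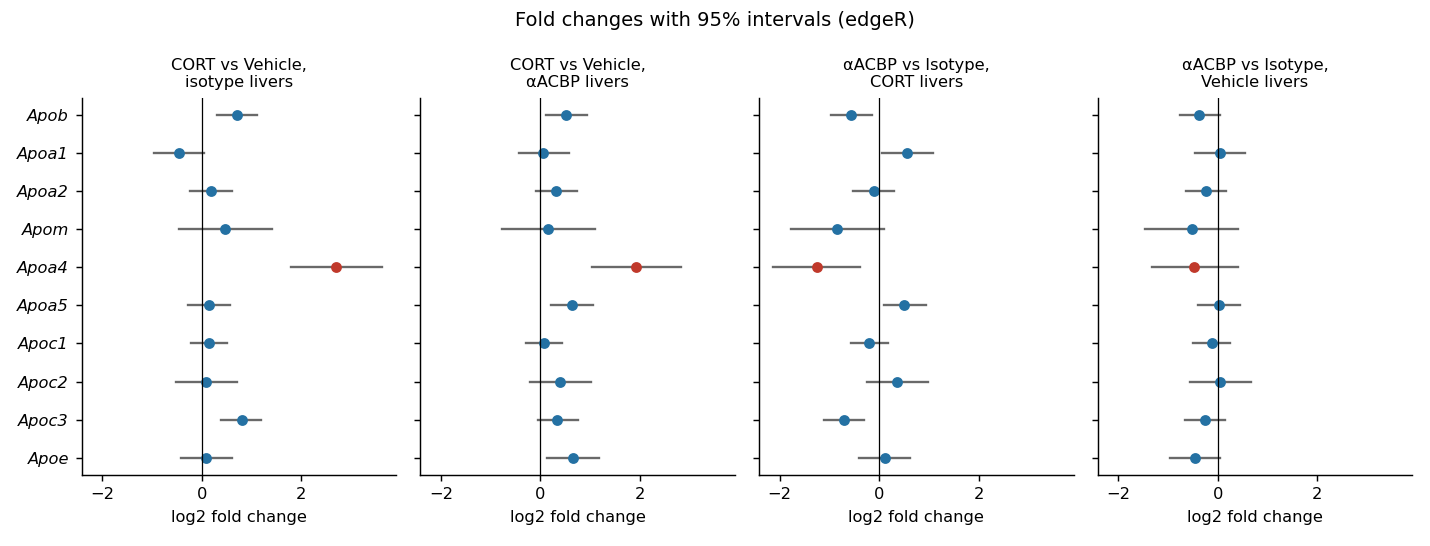
Log2 fold changes of the 10 members (points, Apoa4 in red) with 95% intervals from edgeR in 4 comparisons of 2 groups. Under αACBP the interval of Apoa4 for CORT runs from 1.03 to 2.82, and those of Apoa1, Apoa2, Apoc1, Apoc2, Apoc3 and Apom include 0. The panel of CORT under isotype, and the Apoa4 intervals between antibodies, are a description and no test, since they share livers with the choice of the family.

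The pattern of Apoa4 over the 20 livers was compared with that of 12070 other genes, as a description, on log2 CPM. The genes most like it were Cyp4a10 (Pearson r = 0.95) and Cyp4a14 (0.95), which encode fatty acid omega-hydroxylases, Hsd17b4 (0.94), an enzyme of peroxisomal beta-oxidation, Ephx2 (0.93), the soluble epoxide hydrolase, and Cd36 (0.92), a fatty acid transporter. Spearman's rho for them was between 0.9 and 0.97. The lowest values were those of Ltbp4 (-0.91), Ccdc88c (-0.9) and G6pc3 (-0.9). Among the members, Apob (0.91), Apoc3 (0.81) and Apoe (0.66) were most like Apoa4, whereas Apoa1 had r = -0.21. The points share the treatment groups, and after the group means were removed r was 0.81 for Cyp4a10, 0.93 for Hsd17b4, 0.82 for Apob, 0.43 for Apoc3, 0.72 for Apoe and 0.29 for Apoa1. Cyp4a10 was at 281 ± 77.1 CPM in Isotype + Vehicle, 1239.7 ± 416 in Isotype + CORT, 218 ± 100.3 in αACBP + Vehicle and 493 ± 179 in αACBP + CORT (SD, n = 5).

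**Figure D5:**
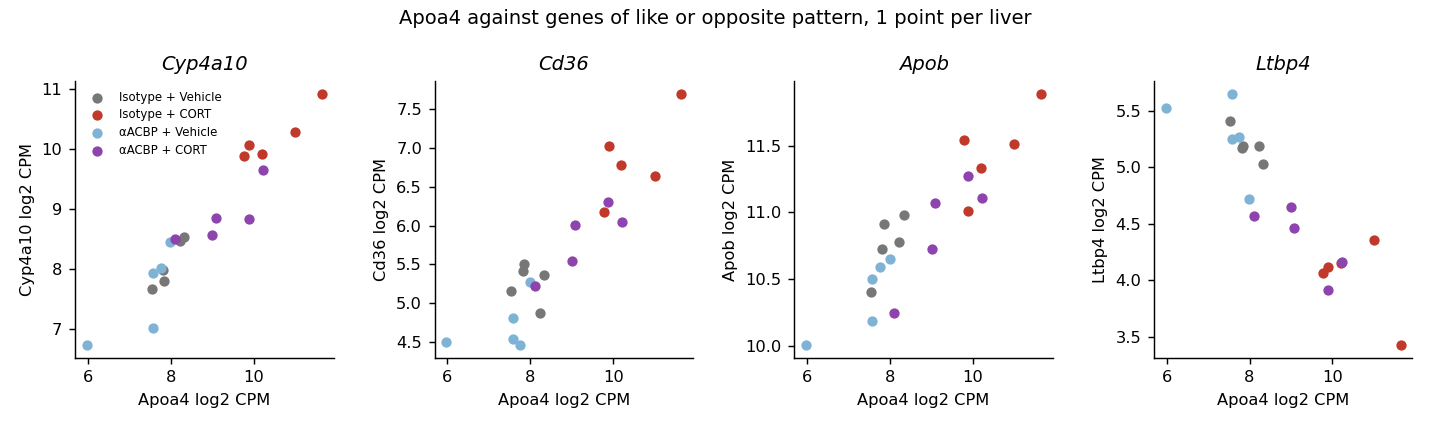
Log2 CPM of Cyp4a10, Cd36, Apob and Ltbp4 (vertical axes) against log2 CPM of Apoa4 (horizontal axes), 1 point per liver, coloured by group. Over the 20 livers Pearson's r is 0.95 for Cyp4a10, 0.92 for Cd36, 0.91 for Apob and -0.91 for Ltbp4.

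Markers of intestinal epithelium were examined since Apoa4, Apob and Apoa1 are also intestinal genes. The summed level of 12 enterocyte markers ranged from 81.6 to 127 CPM in Isotype + Vehicle, 162 to 303 in Isotype + CORT, 91.9 to 195 in αACBP + Vehicle and 142 to 254 in αACBP + CORT. Of the 12, only 3 passed the filter on low counts, and Sis, Cdh17, Cdx1, Cdx2 and Reg3g were at 0 counts in every liver. The part of the remaining markers in the Apoa4 level was not tested.

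Other genes of the pathway were described by lists written with earlier results of these data known. Over all genes tested, 1.94% were called in either direction with CORT under isotype and 0.597% with αACBP under CORT. The share was 0.212% with CORT under αACBP and 1.3% with αACBP under vehicle. The counts per list are a description beside these shares. Of 12 other apolipoprotein genes tested, 2 were called lower with CORT under isotype, Apol9a (log2 fold change -1.85, SE 0.36, adjusted p = 0.00737) and Apol9b (-1.79, SE 0.27, adjusted p = 0.000678), near-identical genes of the apolipoprotein L family between which reads may be split. Apol9b was called higher with αACBP under CORT (1.44, SE 0.27, adjusted p = 0.00722) and Apol9a was at 1.48 (SE 0.36, adjusted p = 0.0508). The median of the 12 with CORT under isotype was -0.08, where that of all genes was 0.

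Of 25 genes of lipoprotein assembly and secretion, 1 was called with CORT under isotype, beside 1.94% of all genes. Sort1, a sorting receptor that binds Apob, fell by 2.68 on the log2 scale (SE 0.39, adjusted p = 0.000291), from 10.4 ± 5.06 to 1.63 ± 0.533 CPM. Sort1 also fell with CORT under αACBP, by 1.66 (SE 0.36, adjusted p = 0.042). Mttp, which loads lipid onto Apob, was at 113 ± 28.8 CPM in Isotype + Vehicle and 193 ± 71.1 in Isotype + CORT, and its log2 fold change of 0.78 (SE 0.26, adjusted p = 0.097) did not pass. Under αACBP it was 0.87 (SE 0.26, adjusted p = 0.136). The median of the 25 was 0.18 under isotype and 0.27 under αACBP.

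Among 27 genes of lipoprotein processing and uptake, 1 was called with CORT under isotype, beside 1.94% of all genes. This was Pltp, which transfers phospholipid to HDL (-1.52, SE 0.25, adjusted p = 0.000762). The antibody under vehicle was accompanied by a rise of Abcg5, a subunit of the biliary sterol transporter (1.06, SE 0.22, adjusted p = 0.00862).

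Of 28 transcription factors of apolipoprotein genes, 2 were called with the antibody under vehicle, beside 1.3% of all genes, and none in the other comparisons. Creb3l3, which encodes the factor CREBH that activates Apoa4 in liver, was at 229 ± 27.8 CPM in Isotype + Vehicle and 380.3 ± 64.3 in Isotype + CORT. Its log2 fold change of 0.73 (SE 0.18, adjusted p = 0.0174) passed the p limit and not the fold limit. In αACBP + Vehicle it was at 331 ± 81.4 CPM and in αACBP + CORT at 379 ± 64.4. Hnf4a was at 398 ± 24.1 and 444 ± 98.7 CPM in the vehicle and CORT livers under isotype (log2 fold change 0.16, SE 0.2, adjusted p = 0.804), and Ppara at 18.2 ± 5.6 and 28.6 ± 5.91 CPM (0.65, SE 0.25, adjusted p = 0.168). Under αACBP, Ppara was at 13.1 ± 5.48 CPM with vehicle and 22.4 ± 4.66 CPM with CORT (log2 fold change 0.77, SE 0.25, adjusted p = 0.165). The part of these factors in the Apoa4 level was not tested. With αACBP against isotype under vehicle, Nr0b2, a corepressor of nuclear receptors, fell by 1.16 (SE 0.27, adjusted p = 0.0159) and Cebpb rose by 1.04 (SE 0.28, adjusted p = 0.0324).

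Of 19 CREBH and fasting response genes, 2 were called higher with CORT under isotype, beside 1.94% of all genes in either direction. The 2 were Fgf21, a hepatokine (3.77, SE 0.95, adjusted p = 0.0374), and G0s2, an inhibitor of triglyceride lipase (1.55, SE 0.32, adjusted p = 0.0095). G0s2 also rose under αACBP (2.11, SE 0.33, adjusted p = 0.0101), whereas Fgf21 was at 1.61 there (SE 0.88, adjusted p = 0.474). The median of the list was 0.36 under isotype and 0.37 under αACBP. Of 19 neighbours of the members on their chromosomes, Zpr1, which lies beside Apoa5, was the 1 called with CORT under isotype (1.22, SE 0.23, adjusted p = 0.00251) and with αACBP under vehicle (1.11, SE 0.23, adjusted p = 0.00763). Of all genes, 1.94% and 1.3% were called in these comparisons. The median of these neighbours with CORT under isotype was 0.01.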

How the data were processed

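Liver RNA of 20 mice was sequenced. The authors used HISAT2 for alignment and HTSeq for counting, and deposited raw counts per gene and liver. The methods name GRCm39, whereas the submitters' processing notes name mm10, and 808 symbols of an older clone form are in the table. For HTSeq the methods name the union mode, with non-unique features included. The annotation release and strand setting are not given in the sources used here. Positions are those of RefSeq on GRCm38.p6. Transcript lengths and overlaps come from GENCODE M39 on GRCm39. Lines for reads on no gene were left out, of which those without a feature made up 42.3% to 45.2%.

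Counts were tested in R 4.3.3 with edgeR 4.0.16 (quasi-likelihood test, TMM, robust fit, filter on low counts by group) in 1 model of the 4 groups. DESeq2 1.42.0 and voom with quality weights of limma 3.58.1 were alternatives. A p was adjusted over all genes tested by the Benjamini-Hochberg method. Single genes were compared by exact permutation of log2 CPM. Programs were tested on simulated data. Promoter windows come from RefSeq. The members and lists were chosen with earlier results of these data known. Named list genes were up to 4 called per list with the largest change, and Mttp, Creb3l3, Hnf4a and Ppara, and not every gene so named is reported here. The genes most like Apoa4 were the 5 with the highest and 3 with the lowest r among genes with a mean of at least 1 CPM, without predicted genes.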

Additional observations from a re-analysis of the deposited data

Results flagged for a closer look

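Each member's level in each group of 5 livers, and the summed share of the 10 members, was examined for a liver whose gap to the nearest other liver exceeded 0.71 of the group's range. Of 44 groups of values 6 had such a liver, where chance alone marks about 1 in 20 groups. In αACBP + Vehicle, replicate 5 was low for Apoa2 (6563 CPM, the next liver at 13513), for Apoe (6774 CPM, the next at 19088) and for the summed share (4.02%, the next at 6.56%). In Isotype + CORT, replicate 5 was high for Apom (354 CPM, the next at 99.4). In Isotype + Vehicle, replicate 4 was low for Apoe (16482 CPM, the next at 26917). In αACBP + CORT, replicate 5 was low for Apoc2 (6.91 CPM, the next at 10.8).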

How the results depend on the processing

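Of 1290 alternative values of the members' log2 fold changes, 1248 kept their sign and their call, which needs both limits together, 8 passed both limits where the reported value did not, and 34 changed sign, all of these being values with intervals that include 0. The 8 were all of Apoa4. The cause of these changes was not tested beyond the removal of a liver or gene where that was the alternative. The number of members called for CORT under isotype was 1, and 1 when any single liver was left out. With no limit on the fold change it was 3 (Apoa4, Apob and Apoc3), 1 to 3 with each of 10 livers left out and 2 without both livers that stood apart. This describes the contrast that chose the family. Nothing is read from it, since the share of all genes under that rule is not given here. For αACBP under CORT the number called was 0, and 1, Apoa4, with unadjusted P, which is no independent test of Apoa4 since Isotype + CORT livers had a part in its choice. For CORT under αACBP it was 0, and 1 by DESeq2's Wald test, by voom, with at least 10 counts in every liver, with library sizes without the 10 members, with unadjusted P and, in an alternative chosen after seeing the data, without both livers that stood apart, and it was 0 to 1 with single livers left out, the liver being αACBP + CORT replicate 5. For αACBP + CORT against Isotype + Vehicle it was 0, and 1, Apoa4, by DESeq2, by voom and with unadjusted P, which is no independent test of Apoa4 since Isotype + Vehicle livers had a part in its choice. The summed share moved by less than 1 SD under 3 other scalings.

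With single livers left out, the log2 fold change with CORT under isotype ranged from -0.12 to 0.21 for Apoc2, -0.04 to 0.15 for Apoe and -0.31 to 0.68 for Apom. With CORT under αACBP it ranged from -0.09 to 0.19 for Apoa1, -0.02 to 0.12 for Apoc1 and -0.02 to 0.49 for Apom. With αACBP under vehicle it ranged from -0.09 to 0.2 for Apoa1, -0.09 to 0.11 for Apoa5 and -0.16 to 0.19 for Apoc2. For αACBP + CORT against Isotype + Vehicle it ranged from -0.02 to 0.26 for Apoa1. The interaction ranged from -0.01 to 0.2 for Apoa2, -0.18 to 0.04 for Apoc1 and -0.53 to 0.47 for Apom. Without both livers that stood apart, the values that changed sign were Apom at -0.33 with CORT under isotype, Apoa1 at -0.09, Apoc1 at -0.02 and Apom at -0.02 with CORT under αACBP, Apoc2 at -0.02 with αACBP under vehicle, and Apoa2 at -0.13 and Apom at 0.31 in the interaction. With CORT under αACBP, library sizes without the 20 most abundant genes gave -0.02 for Apoa1 and -0.02 for Apoc1, and those without the 10 members -0.04 and -0.03. By voom, Apoa5 was at -0.06 with αACBP under vehicle and Apom at 0.06 in the interaction.

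Same-numbered livers of different groups had deviations with a median correlation of 0.001 over 30 pairs, and 3 of 20 livers were most like a liver of their own number. No pairing by number was visible, but these values cannot show that the numbers are without meaning. With the replicate number as a block, 1 member was called with CORT under isotype and 0 in the other comparisons, and Apoa4 with CORT under αACBP was at 1.85 (SE 0.43, adjusted p = 0.0899 by edgeR).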
